A study of Rattus norvegicus with 18 samples.

Results

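The genes described here encode nuclear receptors for retinoids, thyroid hormone and corticosteroids, together with a corepressor that works with them. They are the retinoid X receptors Rxra, Rxrb and Rxrg, the retinoic acid receptors Rara, Rarb and Rarg, the thyroid hormone receptor Thrb, the corepressor gene Hr (hairless), the glucocorticoid receptor Nr3c1 and the mineralocorticoid receptor Nr3c2. Members were selected by gene symbol, and all 10 were found among the 17312 genes of the table. They were chosen partly by their measured values, because Rxrg and Hr differ strongly between groups. The differences of those genes are therefore descriptions and support nothing further.

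Neonatal rat ventricular myocytes, that is, heart muscle cells of Sprague-Dawley pups on day 2, were kept without serum and then given vehicle or SR9009 for 24 h. SR9009 activates the REV-ERB receptors, which repress transcription. Phenylephrine (PE), an α1-adrenergic agonist that makes such cells hypertrophic, followed for 0, 4 or 48 h. The 18 libraries form 6 groups: vehicle at 0, 4 and 48 h and SR9009 at 0, 4 and 48 h, each with 3 libraries. The doses are not given in the labels used here, nor do the labels say whether the libraries of a group came from separate cultures. No group was cultured for 4 or 48 h without PE, so PE and time in culture cannot be told apart within an arm.

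Nuclear receptors bind short DNA elements and switch between repression and activation when their ligand arrives. Retinoid X receptors pair with retinoic acid, thyroid hormone and other receptors and so are shared by many hormone responses, including those that shape the growing ventricle. Thyroid hormone receptors set contractile and calcium-pump genes in heart muscle. The glucocorticoid and mineralocorticoid receptors bind cortisol-like and aldosterone-like steroids, and bind DNA as pairs of themselves. Hairless, the product of Hr, binds thyroid hormone, vitamin D and ROR receptors and recruits histone deacetylases.

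Each gene has 1 deposited value for a group of 3 libraries, in FPKM (fragments per kilobase of transcript, scaled to the mapped fragments). Each value has a lower and an upper confidence bound, whose level is not given in the sources used here. No value per library was analysed, so no difference below was tested and none has a standard deviation or p-value. Changes are given as differences of log2(FPKM + 1), each followed by a range, the widest that the bounds allow. A gene was called higher or lower where the difference was at least 1 (2-fold) and that range excluded 0. Depth is unknown, and the median half-width of the bounds for genes of at least 5 FPKM was between 14.84% and 14.98% of the value. Heart muscle genes were abundant: 9 of 10 cardiomyocyte markers were in the table, and their FPKM summed to between 9071 and 18691 in the groups. Fibroblast markers summed to between 940.4 and 2095, smooth muscle and pericyte markers to between 898 and 2060, and macrophage markers to between 8.003 and 25.5. In bulk samples like these, fewer cells of a type and less RNA per cell cannot be told apart.

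Before PE in vehicle, transcripts of Nr3c1 (69.7 FPKM) and Rara (45.0) were the most abundant of the 10. Rxra followed at 36.1 FPKM, Rxrg at 23.0, Rxrb at 20.1 and Nr3c2 at 14.8. Rarg (6.53), Rarb (6.38), Thrb (4.67) and Hr (1.99) were lowest. Bounds of neighbours in this order overlapped for Rara and Rxra, for Rxrg and Rxrb, for Rarg and Rarb, and for Rarb and Thrb, so the order within those pairs is not resolved. Nr3c1 was first and Rara was second in all 6 groups. All 10 members passed the filter on low values (group values averaging 1 FPKM or more), which 10545 genes passed. Hr reached 1 FPKM in 3 groups, all vehicle, and passed through those groups.

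**Figure D1:**
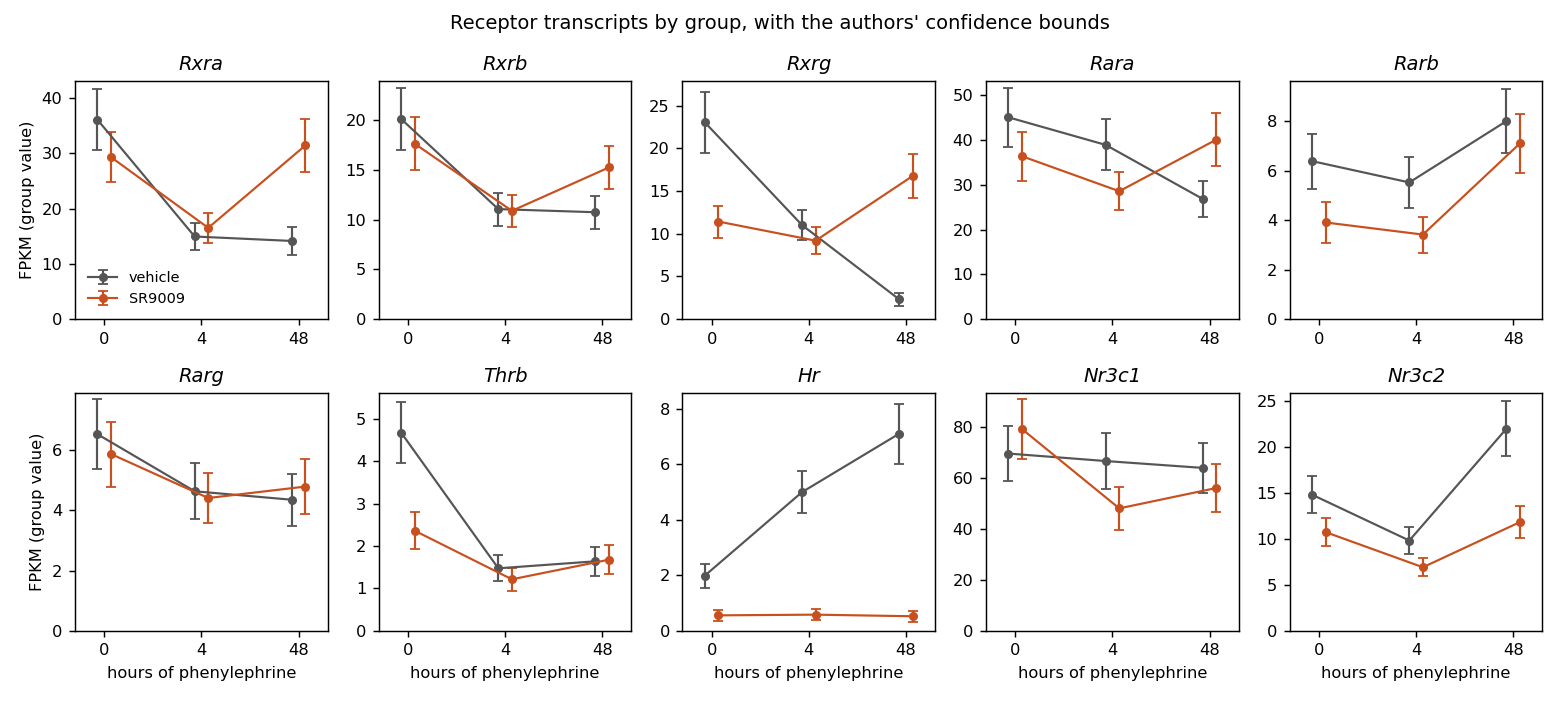
Group value in FPKM (y axis, from 0, on a scale of its own in each panel) of the 10 members against hours of phenylephrine (x axis, the 3 times evenly spaced) in vehicle (grey) and SR9009 (orange). Bars are the authors' confidence bounds, and Hr stayed between 0.524 and 0.582 FPKM with SR9009 while its vehicle values lay between 1.99 and 7.11.

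The sequences below show the promoter windows of the receptor genes called lower after 4 h of PE in vehicle, and were picked by that call alone. Over the 6 groups Rxrg and Thrb were less alike (Pearson correlation of log2(FPKM + 1) 0.54) than Rxra and Rxrb (0.96). RefSeq (build GRCr8) windows of 300 bases, from 250 before to 50 after a gene start, were found for 8 of the 10 members, 10 windows in all. The table's own coordinates are on build rn6 and are not mixed with these. Capitals mark matches to the motifs named after the sequences.
Rxrg (chr13:82276237-82276536, plus strand): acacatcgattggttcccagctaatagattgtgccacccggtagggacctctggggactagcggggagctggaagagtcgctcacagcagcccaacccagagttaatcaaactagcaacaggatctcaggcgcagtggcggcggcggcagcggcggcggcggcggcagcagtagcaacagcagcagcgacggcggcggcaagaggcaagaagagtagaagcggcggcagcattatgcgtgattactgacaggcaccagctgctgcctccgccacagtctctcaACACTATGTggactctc
Rxra (chr3:31387642-31387941, plus strand): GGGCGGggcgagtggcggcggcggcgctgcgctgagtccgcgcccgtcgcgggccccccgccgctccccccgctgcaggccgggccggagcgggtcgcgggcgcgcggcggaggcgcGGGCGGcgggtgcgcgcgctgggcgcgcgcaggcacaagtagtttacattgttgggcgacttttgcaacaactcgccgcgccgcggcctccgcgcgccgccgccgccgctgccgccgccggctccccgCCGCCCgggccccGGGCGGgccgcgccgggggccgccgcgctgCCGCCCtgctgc
Thrb (chr15:10461397-10461696, minus strand): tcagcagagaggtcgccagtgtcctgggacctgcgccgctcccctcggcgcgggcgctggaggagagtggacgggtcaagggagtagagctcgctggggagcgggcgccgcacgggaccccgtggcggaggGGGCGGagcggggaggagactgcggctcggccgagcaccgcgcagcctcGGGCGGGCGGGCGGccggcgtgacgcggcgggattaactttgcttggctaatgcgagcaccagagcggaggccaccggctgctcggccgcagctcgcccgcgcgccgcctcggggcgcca

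The Rxrg window had 60.7% G and C, against 84.7% for Rxra and 76.0% for Thrb, and the median over all 33469 windows was 51.7%. The GC box GGGCGG, searched on both strands, was matched 5 times in Rxra and 4 times in Thrb, some of the Thrb matches overlapping. It was not matched in Rxrg. Of all windows 33.1% held it, and of the 10 member windows 7 did. The capitals in Rxrg mark a match to ACANNNTGT, a loose form of the steroid receptor element, which 6.86% of all windows held. The nuclear receptor half-site AGGTCA was matched in 1 of the 10 member windows, that of Rarg, against 16.2% of all windows. The element of REV-ERB and ROR receptors (AANTAGGTCA, held by 0.245% of all windows) was matched in none of them. Direct repeats of the half-site with 1 base between (AGGTCANAGGTCA, 0.0538% of windows) or 2 (AGGTCANNAGGTCA, 0.012%), and with 4 (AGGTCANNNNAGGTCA, 0.00598%) or 5 (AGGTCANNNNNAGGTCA, 0.00896%), each containing 2 half-sites, were not matched in them either. Nor was the E-box CACGTG, in 6.42% of windows, or the cyclic AMP element TGACGTCA, in 1.83%. These matches describe letters in 300 bases, and no binding was measured here.

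Rarb carries a direct repeat of its own, shown here because the gene is a textbook target of the retinoic acid receptors it belongs to. Its 66 bases up to the end of the RefSeq window (chr15:11336376-11336441, plus strand, GRCr8) follow, with the repeat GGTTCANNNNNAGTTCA in capitals, a motif chosen after the window was seen.
Rarb: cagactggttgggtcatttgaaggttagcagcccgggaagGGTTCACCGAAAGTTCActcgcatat
Of all windows 3, or 0.00896%, held this repeat on either strand.

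After PE in vehicle Rxra and Rxrg were called lower at both times, and Rxrb at neither. At 4 h the FPKM of Rxra was 2.41-fold lower and that of Rxrg 2.09-fold lower, while at 48 h Rxrg had the largest difference of the 3. Rxrg, the form enriched in muscle (chr13:85818473-85868544, rn6), had 23.0 FPKM in vehicle at 0 h, 11.02 at 4 h and 2.32 at 48 h. With SR9009 it had 11.4, 9.19 and 16.8 FPKM at the same times. The lowest group was thus vehicle at 48 h, whose upper bound of 3.05 FPKM lay below the lower bounds of all other groups, 7.64 or more. In vehicle the difference from 0 h was -1.001 (-1.44 to -0.57) at 4 h and -2.86 (-3.42 to -2.34) at 48 h, the latter a 9.95-fold lower FPKM. The 4 h value sat at the limit of the rule and missed it with median centring (-0.97) and quantile normalization (-0.99). With SR9009 the difference was -0.29 (-0.73 to 0.15) at 4 h and 0.52 (0.09 to 0.94) at 48 h, so the arms differed in sign at 48 h.

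Rxra, with the highest value of the 3 retinoid X receptor genes in every group (chr3:6211816-6295354, rn6), had 36.1, 14.97 and 14.2 FPKM in vehicle at 0, 4 and 48 h. With SR9009 the values were 29.3, 16.5 and 31.5 FPKM. The arms overlapped at 0 and 4 h and separated at 48 h, where the vehicle bounds ended at 16.7 and the SR9009 bounds began at 26.7. Rxra was called lower in vehicle at 4 h (-1.22, -1.66 to -0.77) and at 48 h (-1.29, -1.75 to -0.84). With SR9009 it differed from 0 h by -0.79 (-1.23 to -0.35) at 4 h and by 0.10 (-0.33 to 0.53) at 48 h, neither called.

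Rxrb, the widely expressed form (chr20:3823188-3829136, rn6), followed the same course with smaller differences. It had 20.1, 11.1 and 10.8 FPKM in vehicle and 17.6, 10.9 and 15.3 with SR9009. Its vehicle differences of -0.81 (-1.22 to -0.39) and -0.85 (-1.26 to -0.43) had ranges below 0 and did not reach the size of 2-fold.

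Summed over the 3 genes, which FPKM allows because it is per length, retinoid X receptor transcripts stood at 79.3 FPKM in vehicle at 0 h, 37.0 at 4 h and 27.2 at 48 h. With SR9009 the sums were 58.4, 36.6 and 63.5 FPKM. The arms nearly coincided at 4 h, and at 48 h the bounds of the sum, 22.3 to 32.1 in vehicle and 54.0 to 73.0 with SR9009, did not overlap. Rxrg made up 29.1% of the sum in vehicle at 0 h, 29.7% at 4 h and 8.51% at 48 h, where the bounds allow 5.17% to 12.8%. Its share with SR9009 was 19.6% at 0 h, 25.1% at 4 h and 26.4% at 48 h. The makeup of the sum therefore differed in vehicle at 48 h, with Rxra at 52.0% and Rxrb at 39.5%.

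**Figure D2:**
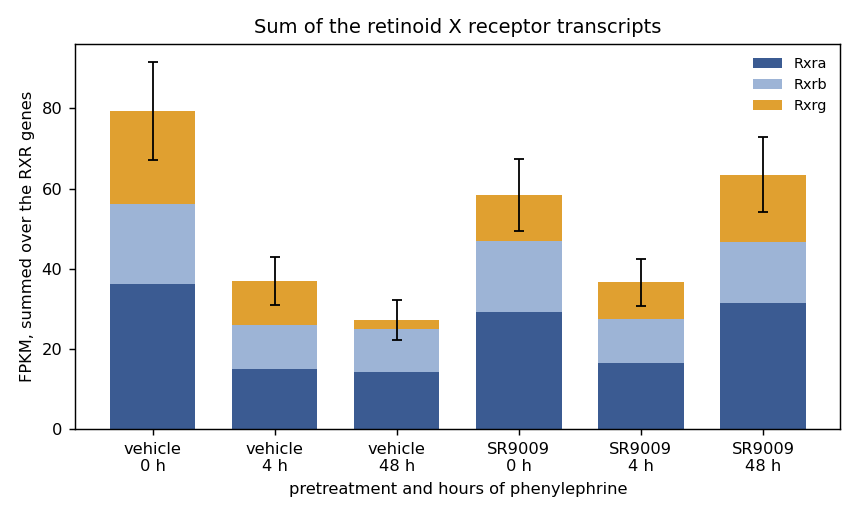
FPKM summed over Rxra, Rxrb and Rxrg (y axis) in the 6 groups (x axis), stacked by gene. Bars on top run from the sum of the lower to the sum of the upper bounds, and the vehicle group at 48 h has the lowest sum, 27.2 FPKM, and the smallest Rxrg part.

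Among the retinoic acid receptors, which pair with retinoid X receptors on retinoic acid targets, none was called in any comparison. Rara (chr10:86870530-86883434, rn6) had 45.0, 38.9 and 26.8 FPKM in vehicle and 36.3, 28.5 and 40.1 with SR9009. Its vehicle difference at 48 h was -0.73 (-1.15 to -0.30), and the SR9009 group at 48 h, with bounds from 34.1 to 46.0, lay above the vehicle group, whose bounds ended at 30.9. Rarb (chr15:10120206-10262598, rn6) went another way, with 6.38, 5.52 and 7.999 FPKM in vehicle and 3.90, 3.41 and 7.10 with SR9009. It was lowest with SR9009 at 0 and 4 h, where its bounds did not overlap those of vehicle, and the arms overlapped at 48 h. Its share of the retinoic acid receptor sum in vehicle was 11.01% at 0 h and 20.4% at 48 h. Rarg (chr7:143840739-143863206, rn6) kept to between 4.36 and 6.53 FPKM in all groups, with overlapping bounds between the arms at each time.

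The thyroid hormone receptor Thrb (chr15:8890578-9239815, rn6) had 4.67, 1.47 and 1.64 FPKM in vehicle at 0, 4 and 48 h, and 2.36, 1.21 and 1.68 with SR9009. Vehicle at 0 h was the highest group, with a lower bound of 3.95 against upper bounds of 2.79 or less elsewhere. Thrb was called lower in vehicle at 4 h (-1.20, -1.56 to -0.83) and at 48 h (-1.10, -1.48 to -0.73). The 48 h call was lost with quantile normalization, at -0.95. SR9009 at 0 h stood at -0.76 (-1.13 to -0.39) against vehicle, a 1.98-fold lower FPKM that the scale understates. At 4 and 48 h the arms overlapped.

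Thra, the other thyroid hormone receptor gene, is no member and is given for comparison: 49.5, 39.7 and 27.4 FPKM in vehicle and 45.6, 33.5 and 44.2 with SR9009. Thrb was thus 8.62% of the thyroid hormone receptor sum in vehicle at 0 h and between 3.50% and 5.65% in the other groups. The locus of Thra in the table is shared with Nr1d1, the gene of REV-ERBα, so its value is uncertain. On rn6 Thrb lies 880.4 kb from Rarb with no other gene of the table between them, and Thra lies 179.7 kb from Rara with 4 between.

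Hr differed between the arms at every time. The gene (chr15:52241801-52261276, rn6) is induced by thyroid hormone in rat brain, where it was characterised as a corepressor. In vehicle it had 1.99 FPKM at 0 h, 5.001 at 4 h and 7.11 at 48 h, and with SR9009 it had 0.557, 0.582 and 0.524. Every vehicle group lay above every SR9009 group, with lower bounds of 1.56 or more against upper bounds of 0.783 or less. In vehicle Hr was called higher at 4 h (1.01, 0.61 to 1.41) and 48 h (1.44, 1.04 to 1.85), the first of which fell to 0.86 and missed the rule with FPKM rescaled to equal sums. With SR9009 the differences after PE were 0.02 (-0.35 to 0.40) and -0.03 (-0.40 to 0.34). Against vehicle, Hr was called lower with SR9009 at 4 h (-1.92, -2.29 to -1.55) and 48 h (-2.41, -2.79 to -2.03), where the FPKM was 8.59-fold and 13.6-fold lower. At 0 h the difference was -0.94 (-1.34 to -0.54) and missed the size, though the FPKM was 3.57-fold lower. A pseudocount of 0.1 in place of 1 makes it -1.67, which meets the rule.

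**Figure D3:**
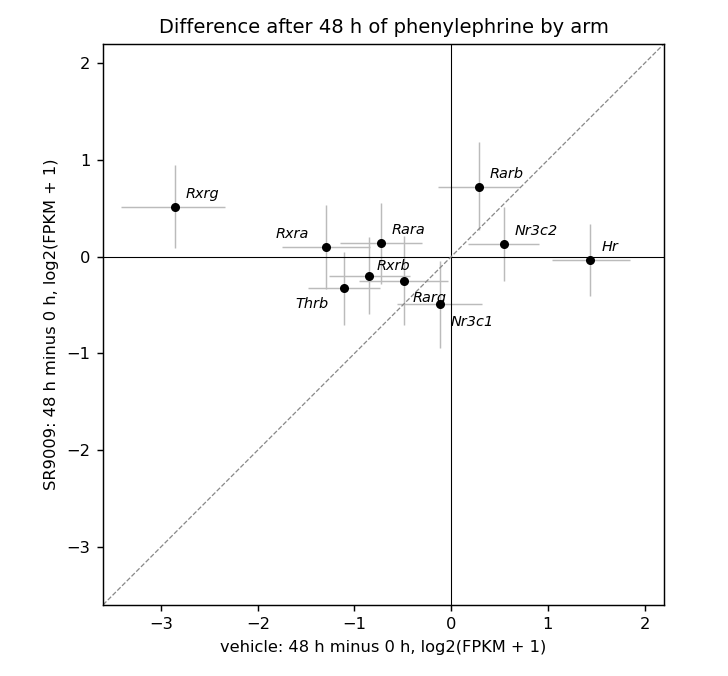
Difference of log2(FPKM + 1) between 48 and 0 h of phenylephrine in vehicle (x axis) and with SR9009 (y axis) for the 10 members. Points are the differences, lines the widest ranges that the bounds allow and the dashed line equal differences; Rxrg sits far left of it at -2.86 and 0.52, and Hr to the right at 1.44 and -0.03.

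Neither steroid receptor was called in any comparison, although Nr3c2 spanned 3.18-fold between its lowest and highest group, more than Rxra at 2.55-fold. Nr3c1, the glucocorticoid receptor, had 69.7, 66.8 and 64.1 FPKM in vehicle and 79.3, 48.2 and 56.2 with SR9009. Its lowest group was SR9009 at 4 h, at -0.71 (-1.18 to -0.25) from SR9009 at 0 h. The locus given for Nr3c1 (chr18:31728373-32670678, rn6) spans 942 kb and overlaps 4 other rows of the table, among them Fgf1, Spry4 and Arhgap26, so its value is uncertain. Nr3c2, the mineralocorticoid receptor (chr19:34408275-34761003, rn6), had 14.8, 9.83 and 22.0 FPKM in vehicle and 10.7, 6.92 and 11.9 with SR9009. Both arms were lowest at 4 h. Vehicle at 48 h was the highest group, with a lower bound of 19.1 against upper bounds of 16.9 or less elsewhere. The SR9009 difference there was -0.84 (-1.22 to -0.46), a 1.86-fold lower FPKM, which did not reach the size. Nr3c2 was 25.6% of the sum of both steroid receptors in vehicle at 48 h and 17.4% with SR9009, with bounds of 20.5% to 31.6% and 13.4% to 22.4%.

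Counted over the 10 members, 1 was called higher (Hr) and 3 lower (Rxra, Rxrg, Thrb) after 4 h of PE in vehicle. Of 10418 genes with a difference, 2.75% were called higher and 2.32% lower there. The same members were called in the same directions at 48 h, where the background was 4.87% higher and 3.96% lower of 10416 genes. The medians over the members were -0.48 and -0.61, against -0.02 and 0.01 over all genes. With SR9009 no member was called at 4 h (1.83% higher and 2.65% lower of all) or at 48 h (1.26% and 1.16%), and the medians were -0.46 and 0.03 against -0.06 and -0.03 over all genes. Since Rxrg and Hr were chosen in part for such differences, nothing is read from these counts.

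For SR9009 against vehicle, no member was called at 0 h, where 0.499% of 10415 genes were higher and 0.566% lower. At 0 h, 9 of 10 members were below 0, with a median of -0.37 against -0.01 over all genes. At 4 h Hr was called lower, with a background of 0.499% higher and 1.05% lower, and the median was -0.34 against -0.06. At 48 h Rxra (1.10, 0.65 to 1.56) and Rxrg (2.42, 1.91 to 2.97, a 7.24-fold higher FPKM) were called higher and Hr lower, with a background of 2.33% higher and 4.55% lower of 10408 genes, and the median was 0.07 against -0.04. The interaction, the PE difference with SR9009 minus that in vehicle, was called for no member at 4 h, where 0.077% of 10394 genes were higher and 0.346% lower. At 48 h it was 3.37 (2.43 to 4.36) for Rxrg, 1.39 (0.51 to 2.28) for Rxra and -1.47 (-2.25 to -0.69) for Hr, with 3.71% of genes called higher and 5.34% lower. The comparisons share groups: vehicle at 0 h enters 5 of the 9, the 2 interactions included, and so their values are not independent of each other.

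**Figure D4:**
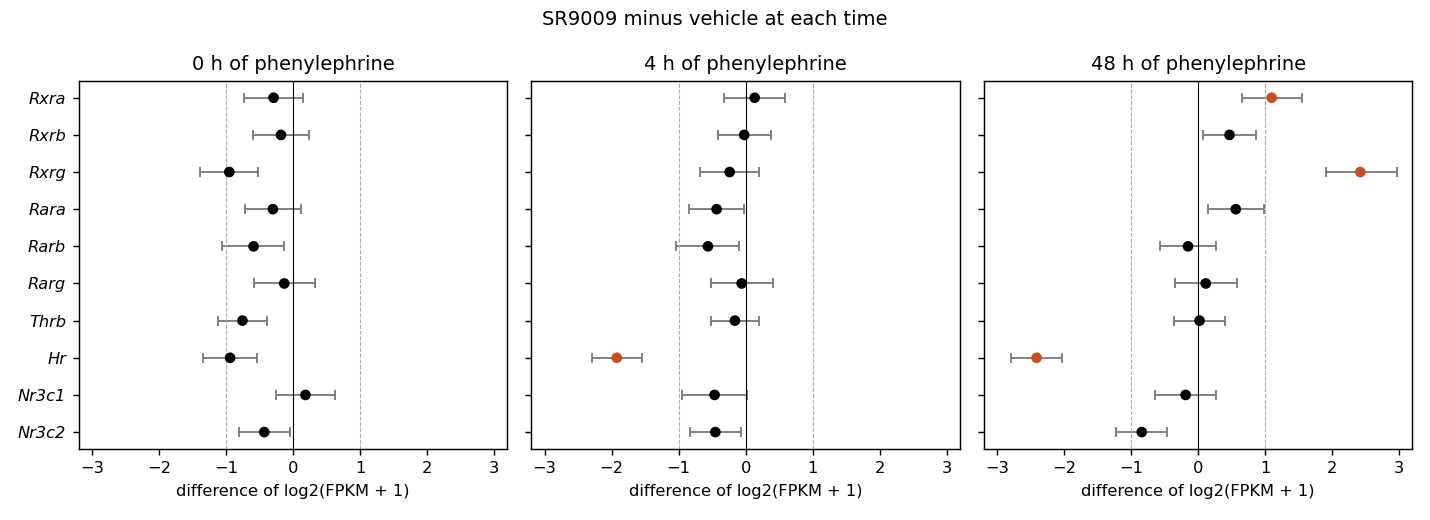
Difference of log2(FPKM + 1) between SR9009 and vehicle (x axis) for the 10 members (y axis) at 0, 4 and 48 h of phenylephrine, with the widest range that the bounds allow as bars and dashed lines at -1 and 1. Orange points met the rule: Hr at 4 h, and Rxra, Rxrg and Hr at 48 h.

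Genes that make and handle the ligands were examined through lists, which were drawn up with earlier results of these data known. Of 27 genes of retinoid transport, synthesis and breakdown, 13 passed the filter. At 48 h of PE in vehicle 4.87% of all genes were called higher and 3.96% lower. Of these 13, 1 was called higher and 2 lower, with a list median of -0.36. The lower ones were retinaldehyde dehydrogenases, which make retinoic acid. Aldh1a2 had 11.04 FPKM at 0 h, 5.90 at 4 h and 3.11 at 48 h in vehicle, and 8.14, 3.70 and 5.01 with SR9009. Aldh1a1, whose close paralogue makes its value uncertain, had 5.99 FPKM at 0 h and 1.24 at 48 h in vehicle, against 4.15 at 48 h with SR9009. The higher gene was the retinal reductase Rdh11, at 18.1 FPKM at 0 h and 44.6 at 48 h. Aldh1a2 is also a marker of epicardium, and of 5 epicardial and mesothelial markers that passed the filter 2 were called lower at 48 h in vehicle, Aldh1a2 and Tbx18, while 2 were above 0. Upk1b of that list, a uroplakin gene, differed by 0.65 (0.18 to 1.14), from 5.81 to 9.72 FPKM, and was not called. The summed level of that list, Aldh1a2 included, was 31.8 FPKM at 0 h and 21.8 at 48 h in vehicle, and its part in the Aldh1a2 difference was not tested.

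Of 22 genes known as retinoic acid targets, 10 passed the filter, and 1 was called higher and 1 lower after 48 h in vehicle (median -0.23). That comparison had 4.87% of all genes higher and 3.96% lower. Tgm2, the tissue transglutaminase, had 68.2, 288.5 and 230.9 FPKM in vehicle and 60.9, 205.4 and 188.8 with SR9009, called higher at both times in both arms. Rarres2, which encodes chemerin, had 30.5, 14.95 and 14.5 FPKM in vehicle. For SR9009 against vehicle, 0 of the 10 were called at any time. The shares of all genes were 0.499% higher and 0.566% lower at 0 h. They were 0.499% and 1.05% at 4 h, and 2.33% and 4.55% at 48 h.

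Of 21 thyroid hormone targets of heart muscle, 19 passed the filter. Myh6 was missing in vehicle at 0 and 4 h, Myh7 in vehicle at 48 h, and both with SR9009 at 48 h. Neither therefore enters any comparison at 48 h. After 48 h of PE in vehicle 0 were called higher and 2 lower among 17 with a difference. The median was -0.41 against 0.01 over all genes, of which 4.87% were called higher and 3.96% lower. The calcium pump gene Atp2a2 had 2359 FPKM at 0 h, 2876 at 4 h and 908 at 48 h in vehicle, and 1456, 1539 and 1803 with SR9009. The β1-adrenergic receptor Adrb1 had 64.6, 31.3 and 25.3 FPKM in vehicle and 46.3, 35.4 and 46.0 with SR9009. Both were thus lowest in vehicle at 48 h, as Rxrg was. At 0 h SR9009 had 1 of 18 higher (Myh7, 1.19) and 2 lower (median -0.43), where 0.499% of all genes were higher and 0.566% lower. At 48 h it had 1 of 17 higher (Pln, 1.03) and 2 lower (median 0.26), against 2.33% and 4.55% of all genes. The list was not split into genes that thyroid hormone raises and genes that it lowers, so these counts give no direction of hormone action. For the interaction at 48 h, 7 of 17 were called higher and 0 lower. The median was 0.74 against -0.03 over all genes, of which 3.71% were higher and 5.34% lower. Ryr2 and Pln of this list are also cardiomyocyte markers here, and Ryr2 was among those called (1.83, 0.96 to 2.68). This count is therefore not separate from that of the cardiomyocyte markers. Klf9, a transcription factor induced by thyroid hormone and by glucocorticoids, had 24.8, 17.6 and 21.2 FPKM in vehicle and 13.7, 6.24 and 9.81 with SR9009. It was called lower with SR9009 at 4 h (-1.36, -1.77 to -0.95) and 48 h (-1.04, -1.43 to -0.64).

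Thyroid hormone supply was represented by 6 genes of 12. The hormone transporter Slc16a10 was called lower in vehicle at 4 h (-1.13) and 48 h (-1.39), with 7.25, 2.78 and 2.14 FPKM. The amino acid and hormone transporter Slc7a5 had 53.5, 38.6 and 51.5 FPKM in vehicle and 98.8, 53.2 and 25.1 with SR9009. Against vehicle it was above 0 at 0 h (0.87, 0.45 to 1.29) and 4 h (0.45, 0.04 to 0.86), neither called, and was called lower at 48 h (-1.01, -1.41 to -0.60).

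Of 27 glucocorticoid and mineralocorticoid targets, 25 passed the filter. After 48 h in vehicle 0 were called higher and 3 lower, with a median of -0.45 against 0.01 over all genes, of which 4.87% were higher and 3.96% lower. For SR9009 against vehicle at 48 h, 4 were called higher and 1 lower. The median was 0.32 against -0.04 over all genes, of which 2.33% were higher and 4.55% lower. The cell cycle inhibitor Cdkn1c had 38.4, 45.3 and 9.37 FPKM in vehicle and 59.1, 47.0 and 47.5 with SR9009. The muscle ubiquitin ligase gene Fbxo32 had 84.8, 29.2 and 27.6 FPKM in vehicle and 106, 59.1 and 70.9 with SR9009. The metallothioneins Mt1a and Mt2A, which have close copies and are uncertain, were called higher with SR9009 at 0 h and 4 h by between 1.97 and 2.199. Of the 17 steroid receptor chaperones and enzymes, 12 passed the filter and 1 was called in the 7 comparisons other than the interactions. In these 7, between 0.499% and 4.87% of all genes were called higher and between 0.566% and 4.55% lower. Hsp90aa1 of this list is listed at 0 in all groups, so it has no difference. The called gene was Star, a cholesterol carrier of steroid synthesis. At 0 h it had 0.925 FPKM in vehicle (bounds 0.359 to 1.49) and 3.30 with SR9009 (2.21 to 4.40).

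Markers of other cells moved in the same comparisons. At 48 h of PE in vehicle 6 of 9 fibroblast markers were called lower (median -1.24), 4 of 9 smooth muscle and pericyte markers higher (median 0.16) and 1 of 9 cardiomyocyte markers higher (median 0.13). Over all genes 4.87% were called higher there and 3.96% lower. For SR9009 against vehicle at 48 h, 2 of 9 fibroblast markers were higher (median 0.55), 3 of 9 smooth muscle and pericyte markers lower (median -0.74) and 1 of 9 cardiomyocyte markers higher (median 0.36). The shares over all genes were 2.33% higher and 4.55% lower. At 48 h of PE with SR9009, 5 of 9 cardiomyocyte markers were called higher (median 1.19) and 0 of 9 fibroblast markers were called (median -0.41). All genes had 1.26% higher and 1.16% lower. For the interaction at 48 h, in which Rxrg stood at 3.37, 4 of 9 cardiomyocyte (median 0.53) and 5 of 9 fibroblast markers (median 1.05) were called higher, and 1 of 9 smooth muscle and pericyte markers higher and 3 lower (median -0.63). Here 3.71% of all genes were higher and 5.34% lower. Of 6 macrophage markers, 2 were lower with SR9009 at 0 h, 4 at 4 h and 1 at 48 h, where 0.566%, 1.05% and 4.55% of all genes were lower. At 0 h the summed FPKM of the macrophage markers was 25.5 in the vehicle group against 9.63 in the SR9009 group. Col1a2 of the fibroblast list is listed at 0 in all groups, while no marker of the other lists is. The part of these cells in the values of Rxrg, Hr and the other members was not tested.

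Patterns most like those of Rxrg and Hr were found by Pearson correlation of log2(FPKM + 1) over the 6 groups, a description over few points that share the scaling of their group. Among 1651 genes of at least 5 FPKM on average and a range of at least 1, the ubiquitin ligase gene Lnx1 was closest to Rxrg (0.989), followed by the phosphodiesterase Pde7b (0.980), Lrrc39 (0.979), Cox8b (0.971) and Adamts7 (0.970). Cox8b, a muscle subunit of cytochrome oxidase, had 1644, 1450 and 532 FPKM in vehicle and 1181, 1074 and 1554 with SR9009. Closest to Hr were the smooth muscle actin Acta2 (0.956), itself on the smooth muscle marker list, Ctgf (0.950), the adaptor Dab2 (0.944), Crispld2 (0.942) and the Wnt receptor Fzd2 (0.940). Ctgf, a matrix-associated growth factor, had 474, 1109 and 1541 FPKM in vehicle and 420, 448 and 274 with SR9009. Between members, Rxra and Rxrb were most alike (0.961), while Rxrg and Rxra stood at 0.779 and Rxrg and Hr at -0.59.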

How the data were processed

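RNA of 18 libraries (6 groups of 3) was sequenced from a stranded mRNA preparation, per the labels. The deposited values are FPKM, which the authors computed for each gene once per group, adding confidence bounds. Per the submitters' processing notes the tools were FastQC, Trim Galore, TopHat and Cuffdiff, with build rn6 and no versions. The scaling between libraries and the confidence level: not given in the sources used here. Depth is unknown, and values per library were not used here.

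Differences of log2(FPKM + 1) were taken in Python 3.11.15 with pandas 2.3.3 for genes averaging 1 FPKM or more. Values with a status other than OK were treated as missing, and no difference was taken against a listed 0. A call needs a difference of at least 1 and a range excluding 0, which stands in for a test. The rule was tested on simulated data whose spread was set from the bounds. The spread between libraries is unknown, so that test does not show how often the rule errs here. Table starts were read as counted from 0 and are given from 1. Named genes are the members, Thra, up to 4 genes of each list that met the rule, largest first, and the 5 genes most correlated with Rxrg and with Hr; 1 gene so chosen is not reported here. Members and lists were chosen with earlier results of these data known. Alternatives were a pseudocount of 0.1, 3 other scalings, no filter and a 1.5-fold size.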

Additional observations from a re-analysis of the deposited data

Results flagged for a closer look

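Rxrg was singled out because its difference between 48 and 0 h of PE had opposite signs in the 2 arms, with both ranges excluding 0: -2.86 in vehicle and 0.52 with SR9009, an interaction of 3.37. Each arm is represented by 1 value per time, so this difference was not tested.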

How the results depend on the processing

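No paired analysis was possible because the table holds 1 value per group, so the replicate numbers of the labels have no columns; leaving out single libraries was not run for the same reason. Over 9 comparisons and 6 alternatives, no called member or other named gene changed sign. The number of members called with SR9009 against vehicle at 0 h was 0, but 2 with a pseudocount of 0.1 (Rxrg and Hr; all genes 62 higher and 97 lower of 10415) and 4 with a 1.5-fold size (all genes 194 and 289). With that size, counts were 4 in place of 0 for 4 h of PE with SR9009 (all genes 676 higher and 1036 lower of 10408), 1 in place of 0 for 48 h of PE with SR9009 (525 and 517 of 10409), 1 in place of 0 for the interaction at 4 h (12 and 69 of 10394) and 5 in place of 3 for the interaction at 48 h (571 and 798 of 10394). Quantile normalization gave 1 in place of 0 for the interaction at 4 h (Hr, -1.06; all genes 8 higher and 33 lower). Rxrb was called lower at 48 h in vehicle (-1.05) after rescaling FPKM to equal sums.

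Over all genes, that rescaling took the median from -0.02 to -0.20 at 4 h and from 0.01 to -0.19 at 48 h in vehicle, and from -0.06 to -0.17 at 4 h with SR9009. It moved the interaction at 48 h from -0.03 to 0.08 and SR9009 at 48 h from -0.04 to 0.06. The split of calls over all genes moved with it: from 287 higher and 242 lower to 198 and 407 at 4 h in vehicle, from 507 and 412 to 341 and 666 at 48 h in vehicle, from 190 and 276 to 147 and 415 at 4 h with SR9009, from 131 and 121 to 111 and 165 at 48 h with SR9009, from 243 and 474 to 341 and 391 for SR9009 at 48 h, and from 386 and 555 to 512 and 442 for the interaction at 48 h. For SR9009 at 4 h it moved from 52 and 109 to 68 and 91 with median centring and 61 and 78 with quantile normalization. Across the alternatives, Rxrg at 48 h in vehicle ranged from -3.26 to -2.86 and Hr with SR9009 at 48 h from -3.53 to -2.32.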

Other observations

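Other receptors and the cofactors of the family were counted in the same way. Of 27 other nuclear receptor genes, 12 passed the filter, and after 48 h of PE in vehicle 1 was called higher and 2 lower (median -0.14). That comparison had 4.87% of all genes higher and 3.96% lower. Nr0b2, a receptor without a DNA-binding domain that represses others, had 25.4, 9.67 and 9.48 FPKM in vehicle and 22.8, 17.0 and 21.2 with SR9009. It was called lower at both times in vehicle and higher with SR9009 at 48 h (1.09, 0.49 to 1.71). Nr2f2, the COUP-TFII receptor, had 12.1, 5.01 and 4.02 FPKM in vehicle and 8.27, 4.19 and 5.05 with SR9009. Nr4a3 was called higher after PE in both arms at both times, as was Nr4a1 of the receptors that pair with retinoid X receptors. Of those 12 partner genes 10 passed the filter, and Nr4a1 alone was called in the 7 comparisons other than the interactions. In these 7, between 0.499% and 4.87% of all genes were called higher and between 0.566% and 4.55% lower.

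Of 23 corepressors and coactivators, 18 passed the filter. In the same 7 comparisons, with between 0.499% and 4.87% of all genes higher and between 0.566% and 4.55% lower, only Ppargc1b was called. This coactivator had 17.5, 39.2 and 19.7 FPKM in vehicle and was called higher at 4 h (1.12, 0.73 to 1.501). With SR9009 against vehicle, 15 of the 18 were below 0 at 4 h, with a median of -0.21 against -0.06 over all genes.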
